A study of Sus scrofa with 12 samples.

Results

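The thin filament is the actin-based strand of the contractile lattice of heart muscle, and 10 genes of its protein families were followed here in pig myocardium. They were the troponin genes TNNI3, TNNI1, TNNT2 and TNNC1, the tropomyosin genes TPM1, TPM2 and TPM4, the sarcomeric actin genes ACTC1 and ACTA1, and LMOD2. They were chosen by name as members of these families, with earlier results of these data known. TPM4 among them is a cytoskeletal form of non-muscle and smooth muscle cells. All 10 were found among the 35682 genes of the count tables. The libraries came from the hearts of 6 female Yorkshire pigs, aged 10 to 12 weeks at purchase, whose left anterior descending coronary artery was blocked with a balloon for 60 minutes and then reperfused. From day 9 after this injury every animal received tacrolimus (0.75 mg/kg per day), mycophenolate mofetil (500 mg per day) and prednisolone (20 mg per day). At day 14 the heart surface was covered either with scaffold-free vascular organoids of human endothelial progenitor and smooth muscle cells, fixed with fibrin sealant, or with fibrin glue alone. One piece of border zone, next to the infarct, and one of remote zone, from the posterior wall, were sequenced from each animal, giving 6 libraries per region. The labels do not say which animals received organoids, so animals of both treatments stand together in each region, and no sham-operated animal was analysed. The remote zone is therefore the inner control of the same injured, immunosuppressed hearts, and not healthy myocardium. The question put to these genes was whether the border zone and the remote zone differed in their levels, and in the balance between isoforms that can replace each other.

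In a muscle cell, actin monomers line up into the thin filament, tropomyosin coils lie along it, and the troponin complex sits on tropomyosin at regular intervals. Troponin C binds calcium, troponin I holds the filament off until calcium arrives, and troponin T ties both to tropomyosin, so that myosin heads can bind actin only after calcium is released. The fetal heart uses the slow skeletal troponin I of TNNI1 and replaces it with the cardiac form of TNNI3 around birth, and the leaking of cardiac troponins into blood is a clinical sign of myocardial infarction. Leiomodin, the product of LMOD2, lengthens thin filaments at their slow-growing ends, where tropomodulin, the product of TMOD1, caps them.

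The isoform genes are similar enough that the read counts depend on whether reads could be told apart. The starts of the coding sequences of 3 alpha actins and of the 2 striated muscle tropomyosins are shown for this reason, read from the RefSeq annotation of the pig genome Sscrofa11.1. Each is written 5′ to 3′ on its coding strand, starts at the ATG, is 60 bases long, and has in capitals the positions that are not the same in all sequences of its set, 18 of 60 among the actins and 8 of 60 between the tropomyosins.
ACTC1 (cardiac alpha actin, chr1:136281913-136281972, plus strand, exon 2 of 7): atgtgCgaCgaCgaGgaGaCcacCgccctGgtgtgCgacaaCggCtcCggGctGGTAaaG
ACTA1 (skeletal alpha actin, chr14:60413793-60413852, plus strand, exon 2 of 7): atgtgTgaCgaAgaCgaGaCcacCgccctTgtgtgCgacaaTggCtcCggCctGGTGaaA
ACTA2 (smooth muscle alpha actin, chr14:100883064-100883123, minus strand, exon 2 of 9): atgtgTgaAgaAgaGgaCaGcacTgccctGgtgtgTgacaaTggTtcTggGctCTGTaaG
TPM1 (alpha tropomyosin, chr1:109015812-109015871, minus strand, exon 1 of 10): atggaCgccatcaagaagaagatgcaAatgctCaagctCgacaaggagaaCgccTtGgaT
TPM2 (beta tropomyosin, chr1:236409459-236409518, minus strand, exon 1 of 9): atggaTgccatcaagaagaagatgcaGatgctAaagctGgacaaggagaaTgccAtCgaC

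Over their whole coding sequences of 1134 bases, ACTC1 and ACTA1 were identical at 86.8% of positions and differed at 150. The longest run of bases that both shared without a difference was 44, and it was 29 between ACTC1 and ACTA2 and 35 between ACTA1 and ACTA2. These runs are shorter than a single 150-base read. Between TPM1 and TPM2 the identity was 72.6% over 855 bases and the longest shared run 20 bases, and between TNNI1 and TNNI3 the longest shared run was 17 bases. How reads matching several genes were counted is not given in the sources used here, so small shares of one isoform could still stem from another.

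On Sscrofa11.1, TNNI3 lies at chr6:59366828-59377490 and TNNC1 at chr13:34591571-34594320, both on the minus strand. TNNT2 (chr10:23749528-23759696) and TNNI1 (chr10:23788279-23800554) are neighbours on the minus strand of chromosome 10. TPM1 (chr1:108986981-109016090) and TPM2 (chr1:236402249-236410390) are on the minus strand of chromosome 1, ACTC1 (chr1:136281119-136286551) is on its plus strand, and TPM4 (chr2:61453721-61476781) is on the minus strand of chromosome 2. ACTA1 is on the plus strand at chr14:60412651-60415687, and LMOD2 is on the minus strand at chr18:23803927-23815772. None of the 10 overlapped another RefSeq gene, which matters because the libraries kept no strand. RefSeq lists 24 transcripts of TPM1, among them non-muscle forms, and a count per gene does not separate them.

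Upstream sequence is shown for the members at the ends of the range seen below, ACTA1 with the highest count level and TNNI3 with the most negative fold change, both picked after their values were seen. Each is the 150 bases before the start of the RefSeq transcript, on the coding strand, with matches to the searched motifs in capitals.
ACTA1 (chr14:60412792-60412941, plus strand): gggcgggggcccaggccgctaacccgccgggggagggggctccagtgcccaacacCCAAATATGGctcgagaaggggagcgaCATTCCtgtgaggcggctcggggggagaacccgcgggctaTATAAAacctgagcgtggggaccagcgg
TNNI3 (chr6:59370417-59370566, minus strand): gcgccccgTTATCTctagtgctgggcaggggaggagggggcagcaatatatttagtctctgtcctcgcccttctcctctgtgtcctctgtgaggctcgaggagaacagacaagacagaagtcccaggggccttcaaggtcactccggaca

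In ACTA1 the capitals mark a CArG box (the motif of serum response factor) at -95 to -86, an MCAT element (CATTCC) at -68 to -63 and a TATA box (TATAAA) at -28 to -23, counted from the transcript start. In TNNI3 they mark a GATA motif (AGATAA, here on the other strand) at -142 to -137. Both strands of 300 upstream bases were searched in the 10 members and in 20666 RefSeq genes. The CArG box was found in 1 of 10 members and 1.58% of all genes, the TATA box in 1 and 12.6%, the MCAT element in 4 and 12.5%, the GATA motif in 2 and 10.5%, the MEF2 motif in 0 and 3.23%, and the E-box (CANNTG) in 7 and 69%. These are matches of letters in windows that need not be promoters. The TNNT2 window lies before a transcript model without untranslated bases. The windows of TNNI3, TNNI1, TPM2 and TPM4 lie inside the span of their own gene, since another RefSeq transcript starts further upstream, and those of TPM1 and ACTA1 lie partly inside it. The shorter ACTA1 stretch printed above lies wholly inside the gene span.

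Totals of counts on genes ranged from 15130210 to 31618680 per library, and 13844 genes passed the filter of edgeR on low counts, all 10 members included. A pair of border zone libraries stood apart. That of animal 1022 had a summed level of the 15 fibroblast and matrix markers of 85578 CPM (counts scaled to a common library size), against 14357 in the next border zone library and 1439 to 3586 in the remote zone, and its 11 cardiomyocyte markers summed to 3353, against 19087 or more in every remote zone library. That of animal 3622 had counts on 28024 genes, against 16932 to 20148 in the other 11 libraries. The remote zone library of animal 3622 had the highest share of counts on mitochondrial genes, 33.5%, against 5.69% to 21.4% in the other libraries, and the lowest TMM factor, 0.671. This share was lower at the border in 5 of 6 animals. Values without animal 1022 are given beside many of the results below. Of 10 skeletal muscle markers with an identifier, 7 were under the filter with at most 68 counts in any library, and the fast myosin genes MYH1, MYH4 and MYH8 were among them. The other 3, CKM, PYGM and MYH3, passed the filter, and CKM is also one of the 11 cardiomyocyte markers. By edgeR CKM and PYGM were lower and MYH3 was higher in the border zone, none with an adjusted p under 0.05. MYH3 had the fewest counts of these 3.

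Levels are given as CPM after TMM scaling, and log2 fold changes are border zone relative to remote zone with their standard error (SE), from the quasi-likelihood test of edgeR with Benjamini-Hochberg adjustment over all 13844 genes. The test had region as its only term. Of the 10 members, 0 had an adjusted p under 0.05, where 2.07% of all genes did (2.06% higher and 0.0144% lower in the border zone). At an unadjusted p under 0.05 there were 3 members, TPM4 higher and TNNI3 and TNNC1 lower, against 17% of all genes higher and 7.78% lower. Log2 fold changes of 7 members were negative and 3 positive, with a median of -0.32 (-0.18 without animal 1022, with 6 negative and 4 positive, and -0.017 with library totals, with 5 of each sign), while the median of all genes was 0.038. Within animals, 5 members were lower at the border in all 6 animals (TNNI3, TNNT2, TNNC1, TPM1 and TPM2), as were 11.1% of all genes. With library totals in place of TMM factors, which moved the median of all genes from 0.038 to 0.32, only 2 members were lower in all 6 animals, against 3% of all genes, and TPM4 passed the threshold (11.2% of all genes were called higher). The Wald test of DESeq2 called TPM4 higher, with 4.93% of 28693 genes, and TNNI3 lower, with 1.08%, and with the animal as a replicate block edgeR called 0 members and 0.296% of all genes. A border zone piece with fewer muscle cells and one with less of these transcripts per muscle cell cannot be told apart in bulk tissue.

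**Figure D1:**
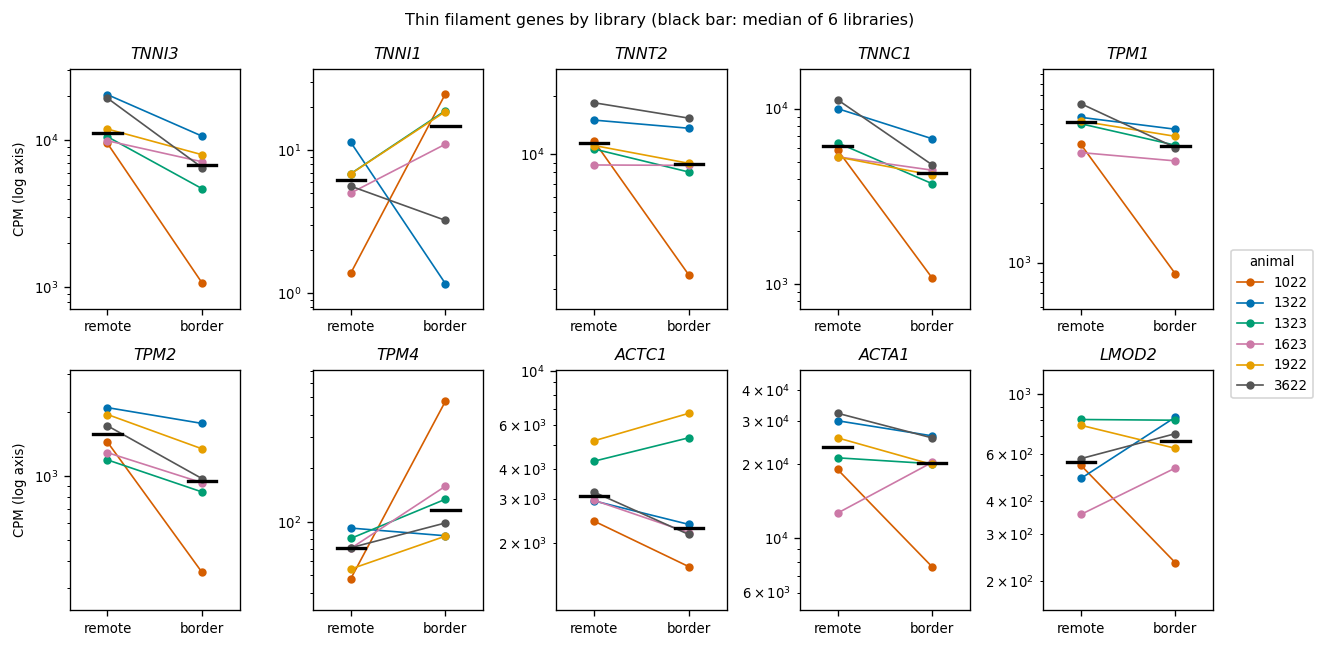
Levels of the 10 thin filament genes in CPM on a log axis, 1 point per library, with lines joining the remote zone and border zone of an animal and black bars at the medians of 6 libraries. TNNI3, TNNT2, TNNC1, TPM1 and TPM2 lines all slope down to the border zone, and the border zone library of animal 1022 is the lowest for 8 of the 10 genes and the highest for TNNI1 and TPM4.

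**Figure D2:**
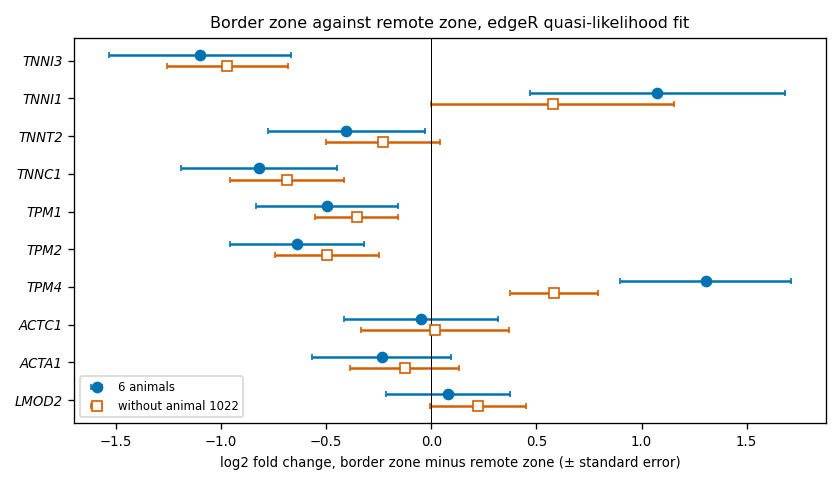
Log2 fold changes of the border zone relative to the remote zone with standard errors from edgeR, with all 6 animals (filled circles) and without animal 1022 (open squares). TPM4 moves from 1.31 to 0.58 when animal 1022 is left out, and TNNI3 from -1.10 to -0.97.

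TNNI3, the cardiac inhibitory subunit, had the most negative fold change of the members. Its CPM ranged from 1072 to 10686 with a median of 6841 in the border zone, and from 9522 to 20455 with a median of 11258 in the remote zone. Of the 6 border zone libraries, 5 lay below every remote zone library, and that of animal 1322 did not. The log2 fold change was -1.10 (SE 0.43, unadjusted p = 0.0238, adjusted p = 0.148 by edgeR), which corresponds to a level 2.15-fold higher in the remote zone. With the animal as a block it was -1.28 (adjusted p = 0.0933), by DESeq2 -1.16 (adjusted p = 0.0487), without animal 1022 -0.97 (adjusted p = 0.136) and without animal 3622, whose remote zone library had the highest mitochondrial share, -1.0 (adjusted p = 0.322). With mitochondrial genes left out of the fit it was -1.11. The border zone held 11.3% of the remote zone level in animal 1022, 33.8% in 3622, 44.3% in 1323, 52.2% in 1322, 66.9% in 1922 and 72% in 1623.

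TNNI1, the troponin I of slow skeletal and fetal heart muscle, was present at a very low level, with 24 to 752 counts per library, whereas every other member had 1045 or more. Its CPM ranged from 1.17 to 24.8 with a median of 14.9 in the border zone and from 1.39 to 11.4 with a median of 6.24 in the remote zone, and the regions overlapped. The log2 fold change was 1.07 (SE 0.61, adjusted p = 0.284 by edgeR), and 0.58 without animal 1022 (adjusted p = 0.678). TNNI1 was higher in the border zone of 4 animals and lower in 2, from 17.0-fold higher in 1022 to 10.9% of the remote zone level in 1322 on the log2 CPM scale, which adds a prior count. Per kilobase of transcript, TNNI1 stood at 0.00041 of the TNNI3 level at the remote zone median and at 0.0015 at the border zone median. The highest ratio of any library was 0.0179, in the border zone of animal 1022, and with the length of all RefSeq exons of each gene it was 0.104. By either length TNNI3 exceeded TNNI1 in each of the 12 libraries. The log2 ratio of TNNI1 to TNNI3 was higher at the border in 5 of 6 animals by a mean of 2.0 ± 3.08 (SD, n = 6), of which 7.24 in animal 1022, and without that animal the mean was 0.95. Without animal 1322, whose ratio was lower at the border (-2.26), the mean was 2.85. The TNNI1 to TNNI3 ratio was the most spread of the 8 examined, and an exact permutation test of sign changes within animals gave p = 0.156 (0.208 after adjustment over the 8 ratios).

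TNNT2, the tropomyosin-binding subunit, ranged from 2357 to 15299 CPM in the border zone (median 8813) and from 8743 to 18379 in the remote zone (median 11311). The regions overlapped, and 3 border zone libraries lay below all remote zone libraries. Its log2 fold change was -0.40 (SE 0.37, adjusted p = 0.528 by edgeR), and -0.23 without animal 1022. Animal 1623 showed almost no difference, with 8705 CPM in the border zone and 8743 in the remote zone. TNNC1, the calcium-binding subunit shared by heart and slow skeletal muscle, ranged from 1087 to 6744 CPM (median 4326) in the border zone and from 5308 to 11248 (median 6109) in the remote zone. All border zone libraries but that of animal 1322 lay below every remote zone library. The log2 fold change of TNNC1 was -0.82 (SE 0.37, unadjusted p = 0.0449, adjusted p = 0.193 by edgeR).

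The 3 subunits form 1 complex in equal numbers, so the ratios of their transcripts were compared within each library, where library size cancels. The log2 ratio of TNNI3 to TNNT2 was lower at the border in 6 of 6 animals, by between 0.27 and 1.3, with a mean difference of -0.75 ± 0.35 (SD, n = 6). The exact permutation test gave p = 0.03125, which is the smallest that 6 animals allow, and 0.0625 after adjustment over 8 ratios. Per kilobase of transcript there were 0.505, 0.876, 0.648, 0.912, 0.994 and 0.475 TNNI3 per TNNT2 in the border zone of animals 1022, 1322, 1323, 1623, 1922 and 3622, and 0.913, 1.52, 1.11, 1.26, 1.20 and 1.17 in their remote zones. The level of this ratio depends on the lengths chosen, since with all RefSeq exons of each gene it ran from 0.0659 to 0.211 over the 12 libraries, but a change of length moves every library by the same factor. The regions overlapped only in that the border zone of animal 1922 exceeded the remote zone of animal 1022.

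The TNNC1 to TNNT2 ratio was lower in all 6 animals too, by a mean of -0.36 ± 0.33 on the log2 scale (SD, n = 6, exact permutation p = 0.03125, adjusted 0.0625). The animals were unequal, from -0.036 in 1922 to -0.97 in 3622. Leaving out 1 animal at a time kept the mean of the TNNI3 to TNNT2 difference between -0.84 and -0.63, and that of TNNC1 to TNNT2 between -0.43 and -0.24. When the 12 libraries were treated as unpaired, the exact permutation test over all splits into 6 and 6 gave adjusted p = 0.026 for TNNI3 to TNNT2 and 0.0289 for TNNC1 to TNNT2. That test ignores that each animal gave both a border and a remote zone library, whose deviations correlated (mean r of 0.345). It therefore does not replace the paired result.

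**Figure D3:**
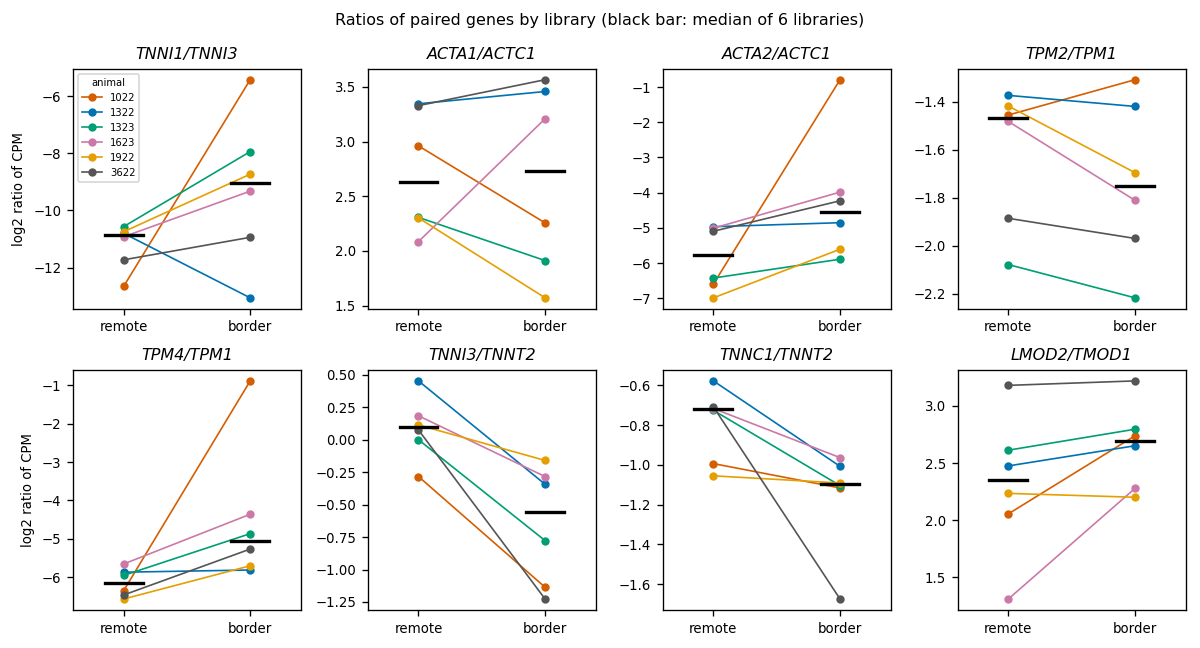
Log2 ratios of CPM for 8 pairs of genes in each library, with lines joining the regions of an animal and black bars at the medians. TNNI3/TNNT2 and TNNC1/TNNT2 are lower in the border than in the remote library in all 6 animals and TPM4/TPM1 and ACTA2/ACTC1 are higher in all 6. By exact permutation the adjusted p is 0.0625 for each. These 4 ratios have the smallest p that 6 animals allow, so this value does not reflect the size of their differences.

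Among the tropomyosins, TPM1 and TPM2, the alpha and beta forms of striated muscle, had similar fold changes. TPM1 ranged from 877.0 to 4715 CPM (median 3862) in the border zone and from 3594 to 6348 (median 5105) in the remote zone, and its log2 fold change was -0.50 (SE 0.34, adjusted p = 0.375 by edgeR). TPM2 ranged from 354.3 to 1764 CPM (median 951.8) in the border zone and from 1190 to 2091 (median 1580) in the remote zone, and its log2 fold change was -0.64 (SE 0.32, adjusted p = 0.229 by edgeR). Both regions overlapped for both genes, and 2 border zone libraries for TPM1 and 4 for TPM2 lay below every remote zone library. The TPM2 to TPM1 ratio was the steadiest of the 8, with a mean within-animal difference of -0.12 ± 0.17 (SD, n = 6, exact permutation p = 0.188, adjusted 0.214). Per kilobase, TPM2 stood at 0.238 to 0.447 of TPM1 in the border zone and at 0.262 to 0.427 in the remote zone, and with the length of all RefSeq exons at 0.437 to 0.821 over the 12 libraries, so alpha tropomyosin was the more abundant form in all of them.

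TPM4, a tropomyosin of the cytoskeleton of non-muscle and smooth muscle cells, had the largest positive fold change of the members. It ranged from 83.1 to 475.2 CPM (median 116.2) in the border zone and from 48.0 to 92.2 (median 71.2) in the remote zone. The border zone libraries of animals 1022, 1323, 1623 and 3622 lay above every remote zone library, and those of 1322 and 1922 lay within the remote zone range. The log2 fold change was 1.31 (SE 0.41, unadjusted p = 0.00638, adjusted p = 0.0892 by edgeR), a 2.47-fold higher level. With the block it was 0.96 (adjusted p = 0.156), and without animal 1022 it was 0.58 (SE 0.21, adjusted p = 0.191). By DESeq2 it was 1.25 (adjusted p = 0.0296), and with library totals 1.70 (adjusted p = 0.0333 by edgeR). Animal 1022 alone had 9.89 times its remote zone level, the other animals 0.906 to 2.23 times.

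Relative to TPM1, TPM4 was higher at the border in 6 of 6 animals, by a mean of 1.66 ± 1.92 on the log2 scale (SD, n = 6, exact permutation p = 0.03125, adjusted 0.0625). In animal 1022 the difference was 5.48 and in animal 1322 only 0.057. Without animal 1022 the mean was 0.90. Per kilobase, TPM4 stood at 0.0139 to 0.0261 of the TPM1 level in the remote zone and at 0.0234 to 0.0642 in 5 border zone libraries, and at 0.717 in the border zone of animal 1022. With the length of all RefSeq exons of each gene the highest ratio was 1.28.

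Of the sarcomeric actins, ACTA1, named for skeletal muscle, was the more abundant in every library. ACTA1 ranged from 7648 to 26114 CPM (median 20224) in the border zone and from 12644 to 32284 (median 23436) in the remote zone, and ACTC1, the cardiac form, from 1601 to 6717 (median 2289) and from 2449 to 5197 (median 3096). Per kilobase of transcript, ACTA1 exceeded ACTC1 by 3.13 to 12.5 times in the border zone (median 7.38) and by 4.47 to 10.7 times in the remote zone (median 6.70). When all RefSeq exons of each gene were used for the length, the ratios over all 12 libraries ran from 2.46 to 9.78. Whichever length was used, ACTA1 stood above ACTC1.

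The ranges of the regions overlapped for both actins and for their ratio. The log2 fold change of ACTA1 was -0.23 (SE 0.33, adjusted p = 0.695 by edgeR), -0.13 without animal 1022, and with library totals it was 0.074. That of ACTC1 was -0.048 (SE 0.37, adjusted p = 0.951 by edgeR), and it turned to 0.016 without animal 1022, 0.016 without animal 1623, 0.030 without animal 3622 and 0.20 with library totals. The within-animal difference in the ACTA1 to ACTC1 ratio was -0.060 ± 0.71 (SD, n = 6, exact permutation p = 0.875 before and after adjustment), higher in 3 animals and lower in 3. ACTC1 was high in both regions of animals 1323 and 1922, with 5342 and 6717 CPM in the border zone and 4294 and 5197 in the remote zone, and the other 8 libraries had 1601 to 3213.

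ACTA2, the alpha actin of smooth muscle and of activated fibroblasts, is not a part of the sarcomere and was followed as the third alpha actin. It ranged from 82.1 to 926.7 CPM (median 126.3) in the border zone and from 25.2 to 94.5 (median 71.1) in the remote zone, and its log2 fold change was 1.91 (SE 0.62, adjusted p = 0.0973 by edgeR), 1.19 with the animal as a block (adjusted p = 0.238) and 0.60 without animal 1022 (adjusted p = 0.275). The ACTA2 to ACTC1 ratio was higher at the border in 6 of 6 animals, by a mean of 1.62 ± 2.10 (SD, n = 6, exact permutation p = 0.03125, adjusted 0.0625), of which 5.81 in animal 1022. Without that animal the mean was 0.78. Per kilobase, ACTA2 stood at 0.0104 to 0.0425 of ACTC1 in the remote zone and at 0.0224 to 0.084 in 5 border zone libraries, against 0.77 in animal 1022.

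LMOD2, the leiomodin of the heart, ranged from 234.8 to 822.2 CPM (median 671.0) in the border zone and from 355.9 to 805.7 (median 559.5) in the remote zone. The ranges overlapped, and 3 animals were higher and 3 lower in the border zone. The log2 fold change was 0.079 (SE 0.29, adjusted p = 0.896 by edgeR), 0.22 without animal 1022 and -0.078 without animal 1322. TMOD1, whose protein caps the ends that leiomodin lengthens, was at -0.25 by the same measure (SE 0.31, adjusted p = 0.646 by edgeR, and -0.049 without animal 1022) and overlaps the gene TSTD2, so its unstranded counts can include reads of that gene. The LMOD2 to TMOD1 ratio was higher at the border in 5 of 6 animals, by a mean of 0.34 ± 0.40 on the log2 scale (SD, n = 6, exact permutation p = 0.0625, adjusted 0.1). In animal 1922 the difference was -0.034.

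To see which members departed from the rest of the sarcomere, each was set against the mean of 9 other sarcomere genes (MYL2, MYL3, MYBPC3, ACTN2, MYOM1, MYOM2, TCAP, MYOZ2 and CSRP3), which encode thick filament, M-band and Z-disc proteins. The mean of these 9 was itself lower at the border in 6 of 6 animals, by -0.70 ± 0.75 on the log2 scale (SD, n = 6), with the largest difference, -2.19, in animal 1022, and by -0.40 without that animal. Singly, 4 of the 9 genes were lower in every animal, as were 11.1% of all genes. By edgeR 0 of the 9 passed the threshold and 3 had an unadjusted p under 0.05, all lower (7.78% of all genes), and the median log2 fold change was -0.51 (-0.29 without animal 1022). The range of the 9 was -0.97 to -0.26, with MYL3 at -0.97 (SE 0.40) and MYOM2 at -0.93 (SE 0.38), near TNNI3 at -1.10 (SE 0.43). Without animal 1322 the lowest of the 9 was at -1.20 and TNNI3 at -1.19, so single reference genes fell about as far as TNNI3. Relative to this mean, TPM1 (0.058 ± 0.097, SD, n = 6), TPM2 (-0.063 ± 0.13) and TNNT2 (0.13 ± 0.19) departed from it by at most 0.43 in any animal. Against the median of the reference genes they were more spread, with -0.031 ± 0.39 for TPM1, -0.15 ± 0.34 for TPM2 and 0.044 ± 0.27 for TNNT2, and the largest departure of these 3 was -0.81, for TPM2. TNNC1 stood at -0.23 ± 0.24, lower in 4 animals and higher in 2, and at -0.32 ± 0.52 against the median, with a lowest value of -1.22.

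TNNI3 lay below the reference in 6 of 6 animals, by a mean of -0.61 ± 0.35, from -0.14 in animal 1922 to -0.96 in animal 1022. With the median of the reference genes in place of their mean it was lower in 5 of 6, with a mean of -0.70. LMOD2 lay above the reference in 6 of 6 animals, by 0.73 ± 0.34, from 0.15 in animal 1922 to 1.01 in animal 3622, and by 0.64 ± 0.26 against the median, again in 6 of 6. The reference mean was itself lower at the border in 6 of 6 animals, so any gene without a difference lies above it in each. LMOD2 itself differed by a mean of 0.024 (3 animals higher, 3 lower), where the median of all genes was 0.050. The share of all genes above the reference in 6 of 6 animals was not counted. ACTA1 stood at 0.43 ± 0.41 (higher in 5 of 6 animals, or 4 of 6 against the median) and ACTC1 at 0.49 ± 0.69 (4 of 6, or 3 of 6 against the median, and 0.28 without animal 1022). TPM4 stood at 1.72 ± 1.91 (6 of 6, or 5 of 6 against the median, and 0.97 without animal 1022). No test was run on these differences.

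**Figure D4:**
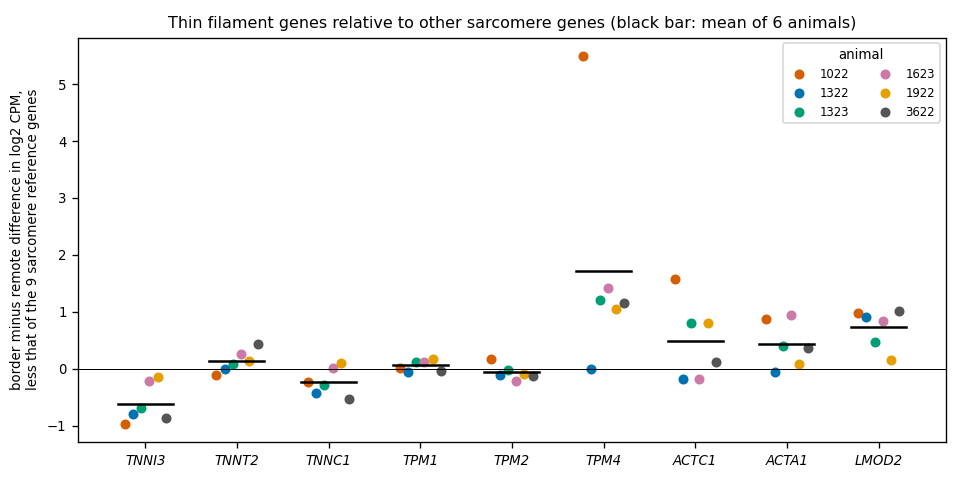
Border minus remote difference of each thin filament gene in log2 CPM, less the same difference of the mean of 9 sarcomere reference genes, 1 point per animal with black bars at the means. TNNI3 lies below 0 and LMOD2 above 0 in all 6 animals, TPM1 and TPM2 lie close to 0, and TNNI1 is left out because its values, from -3.05 to 6.27, would set the scale. The reference itself was lower at the border in all 6 animals, so a gene without a difference lies above 0.

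Isoforms of troponin and actin outside the cardiac set were measured as the wider family. Of 9 listed genes 8 had an identifier and 6 were tested (TNNT1, TNNC2, ACTA2, ACTG2, ACTB and ACTG1). TPM3 was not analysed here. All 6 had positive log2 fold changes, with a median of 1.15 and a range of 0.89 to 3.72, against a median of 0.038 over all genes. By edgeR 0 passed the adjusted threshold (lowest adjusted p = 0.0588) and 6 had an unadjusted p under 0.05, as did 17% of all genes in this direction. Without animal 1022 all 6 were still positive, but the median was 0.75, the range 0.34 to 1.61, and 3 had an unadjusted p under 0.05 (10.1% of all genes in this direction), as did 3 with the animal as a block (17%). Only 1 of the 6, picked out after its values were seen, was higher at the border in 6 of 6 animals, where 11.7% of all genes were. This was TNNT1, the slow skeletal troponin T. Without animal 3622, 4 of the 6 had an unadjusted p under 0.05 by edgeR (14.7% of all genes in this direction). Of the tested genes, TNNC2 was near the floor, with 6 to 39 counts per library. The fast skeletal genes TNNI2 and TNNT3 had at most 22 counts in any library.

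Genes that build, cap or turn over actin filaments made up the second list, with 25 tested of 27. Of these 17 were higher and 8 lower at the border, and their median log2 fold change was 0.34 (0.19 without animal 1022). With library totals 23 were higher and 2 lower, with a median of 0.69. By edgeR 0 passed the threshold, and 8 had an unadjusted p under 0.05, all higher (17% of all genes). Chosen after their values were seen, those nearest the threshold were TMOD2 (1.15, adjusted p = 0.0795 by edgeR), a tropomodulin of neurons, TMOD3 (0.66, adjusted p = 0.0796), the widely expressed form, and GSN (1.02, adjusted p = 0.0866), which severs actin filaments. Without animal 1022 TMOD3 was at 0.41 (adjusted p = 0.185 by edgeR). TMOD3 ranged from 16.7 to 37.3 CPM in the border zone and from 11.7 to 16.6 in the remote zone. TMOD2 was near the floor, with 28 to 148 counts per border zone library and 20 to 57 per remote zone library. Over both lists DESeq2 called 4 genes, TMOD2, TMOD3, LMOD1 and GSN (4.93% of all genes called higher), and library totals gave 10 by edgeR (11.2%). DESeq2 gave no p for ACTA2 and ACTG2. Members of the list known from striated muscle went both ways, with values that were also seen before they were chosen. NEBL, NRAP, FHOD3 and KLHL41 had log2 fold changes of -0.17, -0.059, -0.18 and -0.46, and KLHL40, XIRP1, XIRP2, LMOD3 and NEB of 0.026, 0.50, 0.78, 1.14 and 1.16, none past the threshold by edgeR. LMOD3 had only 110 counts over all libraries together, so its value rests on few reads.

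Markers of other cell types were counted in the same comparison. Of 15 fibroblast and matrix genes, 15 were higher at the border, 14 passed the threshold by edgeR (2.06% of all genes), and the median log2 fold change was 2.93. Without animal 1022 the median was 1.81 and 13 passed (1.14% of all genes). In the blocked fit 2 of the 15 passed (0.289% of all genes called higher). Without animal 1323, 1623, 1922 or 3622 none of the 15 passed, where 3, 0, 15 and 0 of all genes did, while 15 of 15 were higher in each of these fits. Of 12 macrophage genes 12 were higher, with a median of 1.49 (0.62 without animal 1022) and 0 past the threshold, and of 14 smooth muscle and pericyte genes 10 were higher, with a median of 0.96 (0.41 without animal 1022, where 1 passed, and 1.14% of all genes) and 0 past it. DESeq2 called 5 of the macrophage and 6 of the smooth muscle genes, all higher (4.93% of all genes), and library totals 9 and 8 by edgeR (11.2%). The 11 cardiomyocyte genes that are not members were all lower, with a median of -0.51 and 0 past the threshold, and without animal 1022 the median was -0.29, with 8 lower and 3 higher, and with library totals 9 were lower and 2 higher. The 12 endothelial genes went both ways, 8 higher and 4 lower, with a median of 0.12 and 0 past the threshold. The split turned to 4 higher and 8 lower without animal 1022 (median -0.046) and to 11 higher and 1 lower with library totals (median 0.47). The summed cardiomyocyte level ran from 3353 to 22803 CPM in the border zone and from 19087 to 24784 in the remote zone. TPM4, ACTA2 and the other non-sarcomeric isoforms are expressed in fibroblasts and smooth muscle cells as well, and the part of these cells in the results above was not tested.

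The genes most like TNNI3 and TPM4 across the libraries were sought among all tested genes by Pearson's r of log2 CPM over 12 libraries, which share 6 animals and the difference in tissue makeup. For TNNI3 they were HSD17B10 (r = 0.997), NDUFS8 (0.996) and CHCHD10 (0.996), and without the border zone library of animal 1022 the values were 0.989, 0.995 and 0.986. Among the members, TNNC1 was nearest to TNNI3 (0.979), followed by TPM2 (0.955), TPM1 (0.939), TNNT2 (0.908), ACTA1 (0.829), LMOD2 (0.515) and ACTC1 (0.356). Without that library TNNC1 was at 0.933 and TPM2 at 0.871, TNNT2 was at 0.666, and LMOD2 and ACTC1 turned to -0.30 and -0.12. For TPM4 the nearest were GALNT1 (r = 0.983), CNPY4 (0.973) and RAP1B (0.973), with 0.950, 0.917 and 0.908 without that library. TPM4 ran opposite to TPM2 (-0.88), TPM1 (-0.86) and TNNI3 (-0.84) over 12 libraries, and to a lesser extent over 11 (-0.64, -0.41 and -0.47).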

How the data were processed

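The files hold raw counts of reads per Ensembl gene, which the authors made from poly(A)-enriched, nondirectional, paired-end libraries by aligning reads of 150 bases to Sscrofa11.1 with STAR and counting with featureCounts. The deposited counts were not normalized. The authors compared treatments with DESeq2, which was not repeated here, since the treatment of each animal was not used.

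Symbols were paired with 15623 of 35682 identifiers through a gene name table, and genes without one (such as MYH7, TTN and TPM3) were not analysed here. In R 4.3.3, edgeR 4.0.16 was used with filterByExpr, TMM factors and a robust quasi-likelihood fit with region as the only term, and DESeq2 1.42.0 as an alternative. Standard errors were taken as the fold change over the root of the F value. Log2 CPM used a prior count of 2. A single count was worth 0.0294 to 0.0669 CPM. Ratios were tested by flipping the sign of the 6 within-animal differences in all 64 ways (two-sided), with Python 3.11.15, NumPy 2.4.6, SciPy 1.17.1 and pandas 2.3.3. Levels per kilobase used 1 RefSeq transcript per gene (annotation of Sscrofa11.1). Steps were tested on simulated data. PCR copies are not told apart from molecules.

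The number in a label is that of an animal, which pairs its 2 libraries. Their deviations from the region means correlated across genes with a mean r of 0.345, from -0.030 in 1022 to 0.572 in 1323. Alternatives were the replicate block, DESeq2 or its size factors alone, scaling by library totals, leaving out the filter, a floor of 10 counts for each library, removal of mitochondrial genes, another prior count (0.5), a signed rank test, unpaired libraries, the median of the reference genes and each animal left out. The members and lists were chosen with earlier results of these data known. Named genes were the 10 members, ACTA2, TMOD1, any other isoform or assembly gene past the threshold (0), and the 3 genes most like TNNI3 and TPM4. Any other gene is said to be chosen after its values were seen or stands as an example of its list.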

Additional observations from a re-analysis of the deposited data

Results flagged for a closer look

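In each region, the library at either end of the 6 was set apart when its distance to the next one took up more of the range than Dixon's 95% critical value allows. Of 40 groups, 11 held such a library, where chance gives about 1 in 20. The groups are not independent, since 10 of the 11 concern the border zone of animal 1022.

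There, log2 CPM was the lowest of the border zone for TNNI3 (10.07, next 12.20), TNNT2 (11.20, next 12.97), TNNC1 (10.09, next 11.87), TPM1 (9.78, next 11.67), ACTA1 (12.90, next 14.28) and LMOD2 (7.88, next 9.05). It was the highest for TPM4 (8.89, next 7.31) and ACTA2 (9.86, next 7.12), and so were the log2 ratios of TPM4 to TPM1 (-0.88, next -4.36) and of ACTA2 to ACTC1 (-0.79, next -3.98). The same library had the highest summed fibroblast and matrix level, 85578 CPM against 14357 in the next, and the lowest summed cardiomyocyte level, 3353 CPM. The part of this difference in the values above was not tested.

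The remaining one was the log2 ratio of TNNC1 to TNNT2, lowest in the border zone of animal 3622 (-1.67, next -1.12), whose library had counts on 28024 genes. Its cause was not tested.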

How the results depend on the processing

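With the animal as a replicate block, 0 members passed the threshold (0.296% of all genes did), and the block changed the call of no named gene. By the DESeq2 Wald test 2 members passed, TNNI3 (-1.16) and TPM4 (1.25), and 4 other thin filament genes (6.01% of all genes), and with library totals 1 member, TPM4 (1.70), and 10 others (11.2%). The counts were 0 and 0 with DESeq2 size factors (1.52% of all genes called), without the filter (0.462%), with a floor of 10 counts per library (1.23%), without mitochondrial genes (1.84%) and without animal 1022 (1.18%) or 1322 (3.72%). Without animals 1323, 1623, 1922 and 3622 the fits called 3, 0, 15 and 0 of all genes, so the 0 there says nothing about the members. The number of members lower in all animals was 5 (11.1% of all genes), went to 2 with library totals (3%), and was 5 to 6 with 1 animal left out. Being lower in 5 animals is easier to meet than in 6, and the share of all genes was not counted there. Log2 fold changes changed sign for ACTC1 with library totals (0.20) and without animals 1022 (0.016), 1623 (0.016) or 3622 (0.030), for ACTA1 with library totals (0.074) and for LMOD2 without animal 1322 (-0.078). With 1 animal left out ACTC1 ranged from -0.22 to 0.030 and LMOD2 from -0.078 to 0.22. The ACTA1 to ACTC1 difference ranged from -0.30 to 0.075 with 1 animal left out. With no replicate block, 3 ratio differences passed after adjustment by exact permutation, TPM4 to TPM1 (1.66, adjusted p = 0.026), TNNI3 to TNNT2 (-0.75, adjusted p = 0.026) and TNNC1 to TNNT2 (-0.36, adjusted p = 0.0289). This unpaired test ignores that both libraries of a number come from the same animal. The causes were not tested. With 6 animals the paired exact test cannot go below 0.03125, and with 5 not below 0.0625, so it could not pass after adjustment with 1 animal left out. With all animals 4 ratios stood at 0.03125, which sets their adjusted p to 0.0625 whatever the size of the differences. With totals from 15130210 counts, TNNI1 rests on as few as 24 counts.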
